A study of Homo sapiens with 3 samples.

Results

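The 40 genes described here encode proteins of the human kinetochore, the centromere and the spindle assembly checkpoint. They were chosen by name as subunits of the known complexes, with earlier results of these data known but by a rule that uses no measured value, and all 40 were among the 22613 genes listed in each library. RNA sequencing compared LNCaP-abl cells after silencing of the transcription factor E2F1 with cells given control siRNA. LNCaP-abl is a prostate cancer line derived from LNCaP and adapted to growth without androgen. The siE2F1 group (1 library) was transfected with a pool of siRNAs against E2F1 and the control group (2 libraries, numbered 0 and 1 in the labels) with control siRNAs, both by lipid reagent. Cells of both groups were at passage 53 to 60, were kept in medium with charcoal-stripped serum and were harvested 72 h after transfection. With 1 siE2F1 library no siE2F1 value has a replicate, 1 siRNA pool was used, and no label tells if the 2 controls are separate cultures, so p-values measure only the spread between the 2 controls, which may be technical.

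The kinetochore is the protein assembly that ties each chromosome to spindle microtubules. It is built outward from chromatin marked by the histone variant CENPA, through the constitutive centromere-associated network of CENP proteins. Beyond that network lie the KNL1, MIS12 and NDC80 complexes, which together bind microtubules. The SKA complex strengthens the hold on microtubules, and the RZZ complex and the checkpoint kinases and adaptors delay anaphase until every kinetochore is attached. Many of these genes are transcribed periodically, with most of their RNA made in G2 and mitosis, and E2F proteins and the DREAM complex are known regulators of such genes.

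E2F1 itself was at 1.68 FPKM in siE2F1, against 10.6 and 10.6 FPKM in control 0 and control 1 (FPKM, a count of fragments scaled to transcript length and library size). The log2 fold change of E2F1 was -2.12 ± 0.061 (standard error; adjusted p = 0.0311 by limma over all genes tested); the call was lost with a pseudocount of 0.1 FPKM (adjusted p = 0.0601) and with no filter on low values (adjusted p = 0.159). Fold changes here are on the log2(FPKM + 1) scale, siE2F1 over the mean of the controls, which understates the change of low genes. Of 9 luminal prostate markers all were listed, with KRT18, a luminal keratin, at 164, 146 and 141 FPKM in siE2F1, control 0 and control 1, while KLK3, the gene of prostate-specific antigen, was near 0 in each (0.156, 0.152 and 0.0531 FPKM). Of the markers of other cell types, the basal keratin KRT14 was listed at 0 in each library, and COL1A1 (0.606, 1.01 and 0.868 FPKM), PECAM1 (0.837, 0.696 and 0.769 FPKM) and PTPRC (0.423, 0.842 and 1.15 FPKM) were low. Read counts were not used here and the depth of each library is unknown. The sorted values of the libraries were nearly equal, so a change shared by most genes could not be seen.

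Kinetochore genes were lower in siE2F1 almost without exception. All 40 passed the filter on low values (a mean over the 3 libraries of 1 FPKM or more, which 14401 genes met), and 39 were below both controls, where 39.7% of all genes tested were. None was above both controls, where 43.8% of all genes tested were. CENPT, the exception, was at 22.0 FPKM in siE2F1, exactly its value in control 0, against 18.9 FPKM in control 1. The median log2 fold change of the 40 genes was -0.41 (-0.37 against control 0 and -0.42 against control 1), while it was 0.01 over all genes tested. The controls differed from each other by 0.04 at the median of these genes and by 0.221 at most. For 36 genes siE2F1 lay below the nearer control by more than the gap between the controls, as did 29.1% of all genes tested. The 4 others were CENPT, ITGB3BP, MAD1L1 and ZW10. Summed over the 40 genes, the level was 544 FPKM in siE2F1, against 759 and 773 FPKM in control 0 and control 1.

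By size, 11 of the 40 genes were at least 1.5-fold below both controls, where 3.37% of all genes tested were: SKA2, NDC80, OIP5, CENPH, SKA3, CENPM, CENPA, BUB1B, NUF2, CENPI and TTK. Just inside this limit were TTK, at -0.60 and -0.63 against control 0 and control 1, and CENPI, at -0.68 and -0.61. Just outside it were CENPN (-0.56 and -0.59) and ZWINT (-0.62 and -0.55). None was at least 1.5-fold above both, where 2.26% of all genes tested were. The first 4 of the 11 genes were also at least 2-fold below both, where 0.833% of all genes tested were. Both limits were set on the log2(FPKM + 1) scale. On that scale SKA3, at 4.34 FPKM in siE2F1 against 9.22 and 9.40 FPKM in the controls, did not reach the 2-fold limit. Over all genes tested, limma with Benjamini-Hochberg adjustment at 0.05 called 0 of the 40 genes lower and 0 higher (adjusted p from 0.0898 to 0.615), where it called 0.104% of all genes lower and 0.312% higher. At an unadjusted p under 0.05, 29 of the 40 were lower and 0 higher, where 14.9% of all genes tested were lower and 13.5% higher. Of the genes tested, 473 are small RNA genes, and the controls were at least 2-fold apart in 216 of these (45.7%), against 47 of the 13928 others (0.337%). In a second fit without the small RNA genes limma called 19 of the 40 lower and 0 higher (adjusted p from 0.0197 to 0.0498), where it called 6.36% of 13928 genes lower and 4.17% higher. Below, "fell" is used of these 19 genes and of other genes that passed in this second fit, and its standard errors and adjusted p are the ones printed; no gene named in this way, E2F1 aside, passed over all genes tested. In bulk RNA, fewer cells in G2 and mitosis and less of these RNAs per cell cannot be told apart.

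**Figure D1:**
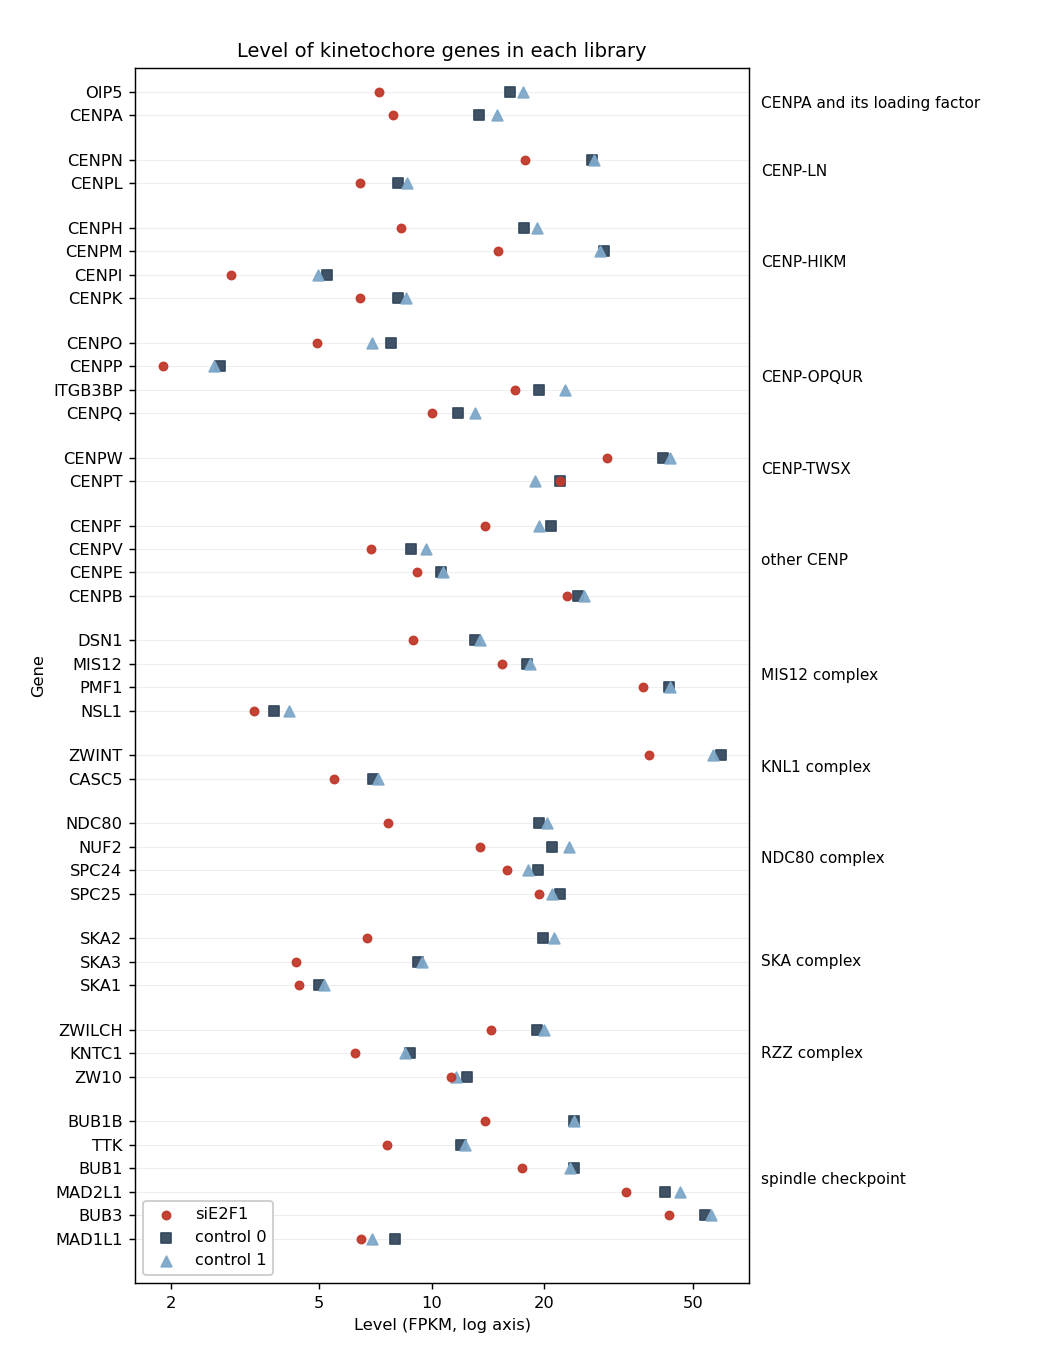
Level of each of the 40 genes (FPKM, log axis) in siE2F1 (circles), control 0 (squares) and control 1 (triangles), with genes grouped by complex and sorted by log2 fold change within it. The circle lies left of both control marks for 39 genes, and for CENPT it covers the square of control 0.

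**Figure D2:**
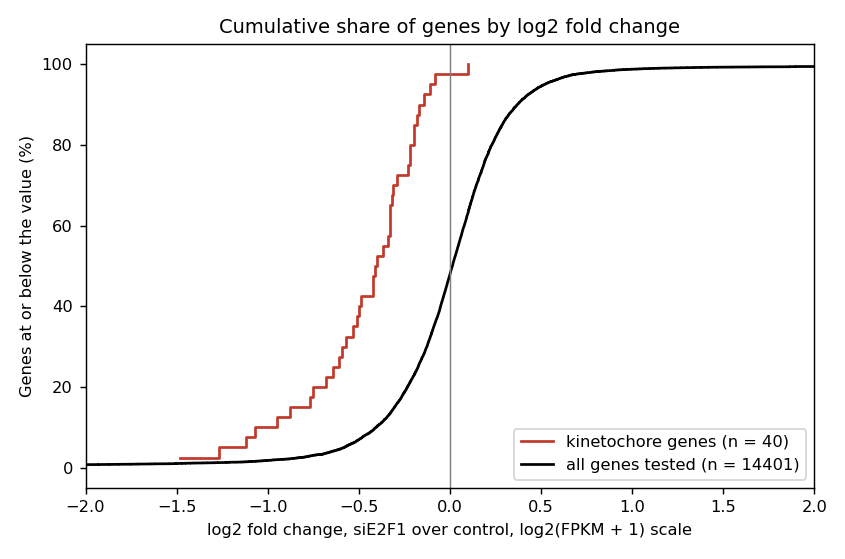
Cumulative share of genes (%) by log2 fold change, siE2F1 over control, for the 40 kinetochore genes and for the 14401 genes tested. The curve of the kinetochore genes lies to the left, with medians of -0.41 and 0.01.

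SKA2, NDC80 and OIP5 had the largest log2 fold changes by size, and ZW10 the one nearest to 0. SKA2, a subunit of the spindle and kinetochore-associated complex, was at 6.70 FPKM in siE2F1, against 19.9 and 21.2 FPKM in control 0 and control 1. That is 32.6% of the control mean, a log2 fold change of -1.48 ± 0.082 (standard error, limma without small RNA genes, adjusted p = 0.0197), and SKA2 fell furthest of the 40. NDC80, the long coiled-coil protein that grips the microtubule, was at 7.65 FPKM in siE2F1, against 19.4 and 20.4 FPKM in control 0 and control 1 (log2 fold change -1.27 ± 0.080, adjusted p = 0.0217). OIP5, known as MIS18 beta, a licensing factor for the loading of new CENPA, was at 7.22 FPKM in siE2F1, against 16.2 and 17.6 FPKM in control 0 and control 1 (-1.12 ± 0.087, adjusted p = 0.0272). In SKA2, NDC80 and OIP5 the controls differed by 0.09, 0.07 and 0.11 on the log2 scale, and siE2F1 lay far below both. ZW10, which serves the checkpoint at kinetochores and membrane traffic in interphase, was at 11.3 FPKM in siE2F1, against 12.4 and 11.6 FPKM in control 0 and control 1. Its shift from the nearer control was smaller than the gap between the controls.

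The promoters of these 4 genes are shown as those of the largest changes and the smallest. Each line gives 250 bases before the RefSeq transcript start and 30 after it (RefSeq, build GRCh38.p14), 5′ to 3′ on the gene's strand, with matches to the motifs searched in capitals. The motifs were the cell cycle homology element (TTTGAA or TTCGAA), the CCAAT box bound by NF-Y and 4 E2F sites (TTTCGCGC, TTTGGCGC, TTTCCCGC and TTTGGCGG), each on both strands.
SKA2, chr17:59155157-59155436, strand -: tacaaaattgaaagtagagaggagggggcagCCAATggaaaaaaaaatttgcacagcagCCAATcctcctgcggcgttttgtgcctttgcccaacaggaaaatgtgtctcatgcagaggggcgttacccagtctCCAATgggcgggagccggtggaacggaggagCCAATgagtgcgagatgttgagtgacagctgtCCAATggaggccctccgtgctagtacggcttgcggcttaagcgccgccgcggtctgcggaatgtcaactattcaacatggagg
NDC80, chr18:2571307-2571586, strand +: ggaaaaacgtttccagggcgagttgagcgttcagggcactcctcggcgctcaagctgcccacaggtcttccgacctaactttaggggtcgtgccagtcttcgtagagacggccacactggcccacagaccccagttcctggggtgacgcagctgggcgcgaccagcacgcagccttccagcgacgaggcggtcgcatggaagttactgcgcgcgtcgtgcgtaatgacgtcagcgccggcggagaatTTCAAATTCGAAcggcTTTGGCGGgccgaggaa
OIP5, chr15:41332562-41332841, strand -: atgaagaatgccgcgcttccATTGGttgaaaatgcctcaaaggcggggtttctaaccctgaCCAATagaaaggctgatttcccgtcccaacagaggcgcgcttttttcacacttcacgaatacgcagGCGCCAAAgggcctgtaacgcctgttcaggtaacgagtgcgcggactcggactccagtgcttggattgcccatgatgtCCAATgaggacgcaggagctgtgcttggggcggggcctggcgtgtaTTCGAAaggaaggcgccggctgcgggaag
ZW10, chr11:113773663-113773942, strand -: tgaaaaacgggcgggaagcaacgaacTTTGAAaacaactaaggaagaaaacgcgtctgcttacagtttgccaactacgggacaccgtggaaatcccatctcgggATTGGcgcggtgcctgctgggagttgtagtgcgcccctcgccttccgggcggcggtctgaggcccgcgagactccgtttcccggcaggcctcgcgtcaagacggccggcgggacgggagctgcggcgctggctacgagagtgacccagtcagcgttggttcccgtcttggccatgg
The SKA2 window held 5 CCAAT boxes and no match to the other motifs. In NDC80 no CCAAT box was found, while 2 homology elements lay side by side over the start (first bases at positions -3 and 4, counting the start as 1) and an E2F site followed at position 14. OIP5 had 3 CCAAT boxes, an E2F site with its first base at position -123 and a homology element at position 2. ZW10 had 1 CCAAT box and a homology element at position -224, farther from its start than those of NDC80 and OIP5. None of the matches in these 4 windows overlapped another. A match is a description of letters, not a site shown to be bound.

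Over the 33 of the 40 genes with a promoter window in the table, 250 bases before to 50 after the start, motif matches were counted beside those in all 35116 windows of the same length, noncoding genes included. A homology element was in 16 of the 33 (48.5%) and in 16.4% of all windows. CCAAT boxes were in 17 (51.5%, against 34.6% of all windows) and an E2F site in 6 (18.2%, against 3.35%). The 6 genes with an E2F match were NDC80, OIP5, CENPA, ZWILCH, ITGB3BP and MIS12, and their log2 fold changes spanned -1.27 to -0.23. Among the 8 windows of genes at least 1.5-fold below both controls 6 held a homology element, and among the 25 other windows 10 did. CCAAT boxes were in 3 of the 8 windows and 14 of the 25, and an E2F site in 3 of the 8 and 3 of the 25. SPC25 and SKA1, with small shifts, each held a homology element and no E2F site, so the homology element occurs in genes with large and with small shifts. These shares were not tested. CENPH, CENPL, CENPM, CASC5, KNTC1, BUB3 and TTK were not matched.

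At the base of the kinetochore, both measured genes of CENPA chromatin fell. CENPA, the histone H3 variant that marks centromeres, was at 7.87 FPKM in siE2F1, against 13.4 and 15.05 FPKM in control 0 and control 1 (log2 fold change -0.77 ± 0.10, adjusted p = 0.0365). Its controls differed by 0.16 on the log2 scale, more than for most of the other genes, yet siE2F1 lay well below both. From the separate list of kinetochore genes outside the 40, HJURP, the chaperone that deposits CENPA, also fell, to 8.83 FPKM in siE2F1 against 15.1 and 15 FPKM in control 0 and control 1. The ratio of CENPA to HJURP was 0.891 in siE2F1, within the 0.884 and 1.0 of the controls. MIS18A, the partner of OIP5, fell (9.62 FPKM in siE2F1, 14.6 and 14.1 FPKM in the controls).

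In the constitutive network the assemblies and their members varied, and no difference between assemblies was tested. In the CENPH, CENPI, CENPK and CENPM group, whose proteins bind CENPC, the median log2 fold change was -0.76. Of these 4 genes 3 fell, where 6.36% of genes in the second fit were called lower. CENPH was at 8.28 FPKM in siE2F1, against 17.7 and 19.2 FPKM in control 0 and control 1 (-1.07 ± 0.087, adjusted p = 0.0272). CENPM was at 15.1 FPKM in siE2F1, against 28.9 and 28.3 FPKM in control 0 and control 1 (-0.88 ± 0.074, adjusted p = 0.0272). CENPI was at 2.90 FPKM in siE2F1, against 5.24 and 4.96 FPKM in control 0 and control 1 (-0.64 ± 0.086, adjusted p = 0.0367), and as a low gene it reached -0.79 with a pseudocount of 0.1 FPKM. CENPK, the fourth subunit, was less changed at 6.42 FPKM in siE2F1, against 8.13 and 8.52 FPKM in control 0 and control 1, and did not pass (adjusted p = 0.0743). The ratio of CENPH to CENPK was 1.29 in siE2F1, below the 2.18 and 2.26 of the controls, while that of CENPM to CENPI was 5.2, near the 5.51 and 5.7 of the controls.

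Of the pair CENPL and CENPN, 1 gene fell. CENPN, which reads the CENPA nucleosome, fell to 17.8 FPKM in siE2F1, against 26.8 and 27.2 FPKM in control 0 and control 1 (adjusted p = 0.0365), while its partner CENPL, at -0.34, did not pass. In the group of CENPO, CENPP, CENPQ and ITGB3BP (CENPR) no gene passed and log2 fold changes ran from -0.49 to -0.29. CENPO was the nearest to passing of these (adjusted p = 0.0561). CENPP was the lowest in level of all 40, at 1.91 FPKM in siE2F1, against 2.71 and 2.62 FPKM in the controls. MLF1IP, the CENPU subunit of the same assembly and not among the 40, had a larger log2 fold change than its partners and fell to 16.7 FPKM in siE2F1 against 32.7 and 34.9 FPKM in control 0 and control 1 (log2 fold change -0.97 ± 0.082, adjusted p = 0.0272).

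In the histone-fold group of CENPT and CENPW the partners parted. CENPW was at 29.5 FPKM in siE2F1, against 41.6 and 43.5 FPKM in control 0 and control 1, and fell (-0.51 ± 0.077, adjusted p = 0.0396), whereas CENPT was not below control 0. The ratio of CENPW to CENPT was 1.34 in siE2F1, against 1.89 and 2.3 in the controls, a pair that itself differed because CENPT did. Their partners outside the 40, APITD1 (CENPS) and STRA13 (CENPX), were at -0.10 and -0.20 and did not pass. Among the remaining CENP genes, CENPF, a large coiled-coil protein of the outer corona, fell (-0.50, adjusted p = 0.0436). CENPV (-0.37), the kinesin gene CENPE (-0.20) and CENPB (-0.11), whose protein binds alpha-satellite repeats, did not pass. CENPB was at 23.1 FPKM in siE2F1, against 24.7 and 25.6 FPKM in control 0 and control 1. Taking all 17 CENP genes, 7 fell, where 6.36% of genes in the second fit were called lower, and the median was -0.37.

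**Figure D3:**
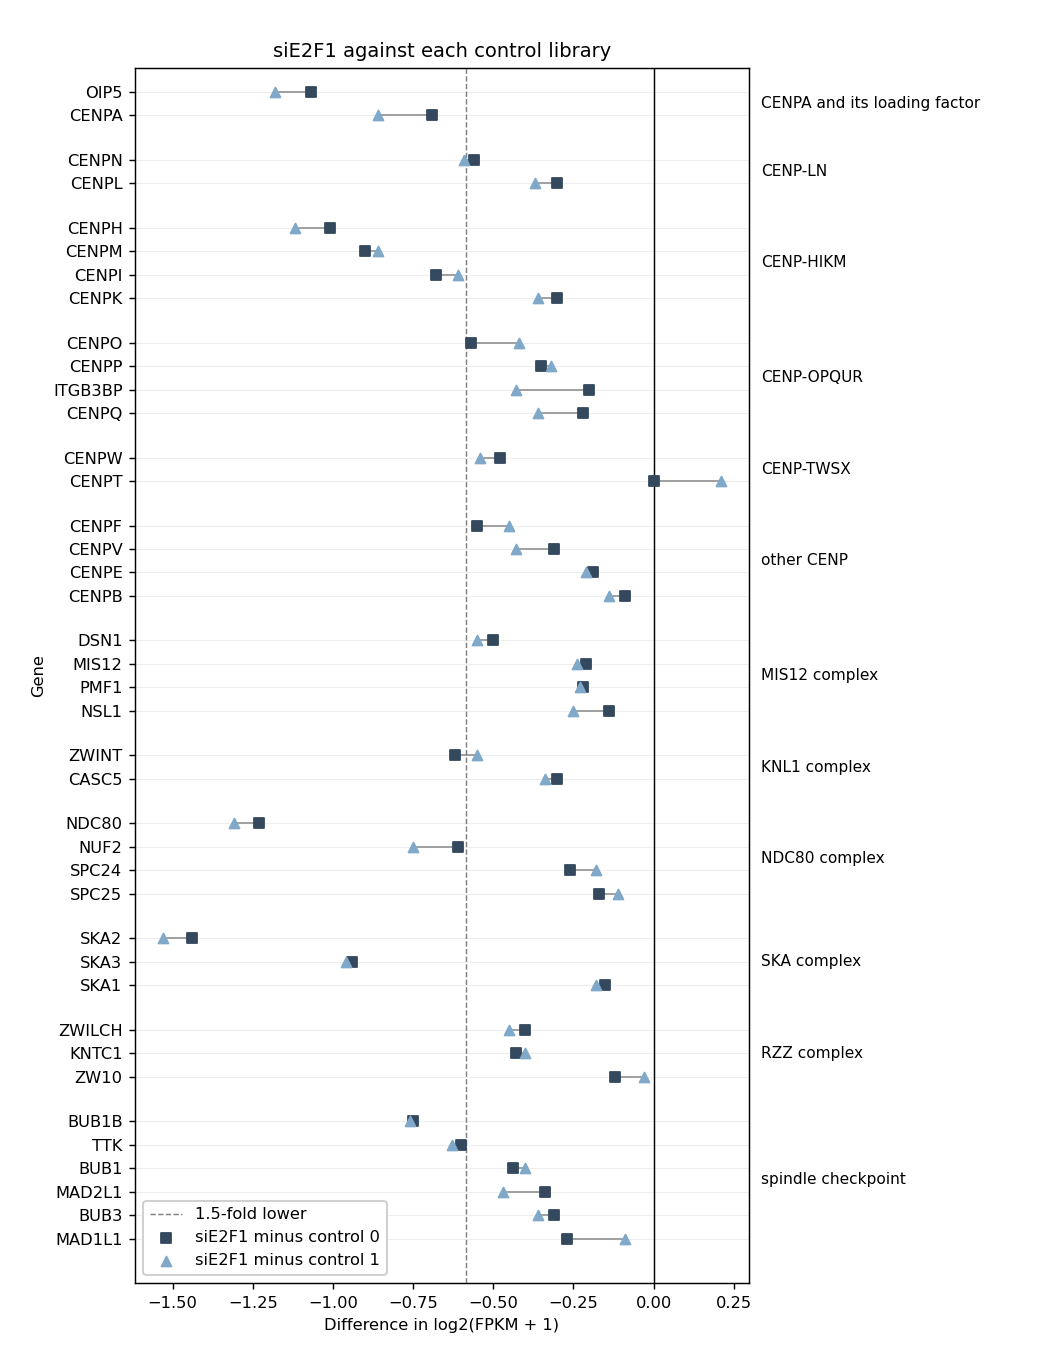
Difference in log2(FPKM + 1) of siE2F1 minus control 0 (squares) and minus control 1 (triangles) for each of the 40 genes, grouped by complex; the dashed line marks 1.5-fold lower. Complexes are not uniform: NDC80 and NUF2 stand apart from SPC24 and SPC25, and SKA2 and SKA3 from SKA1.

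The NDC80 complex, the main microtubule receptor, differed between its dimers. It consists of an outer dimer of NDC80 and NUF2, whose globular ends bind microtubules, and an inner dimer of SPC24 and SPC25, which docks on the kinetochore. NUF2 was at 13.5 FPKM in siE2F1, against 21.04 and 23.3 FPKM in control 0 and control 1, and fell (-0.68 ± 0.095, adjusted p = 0.0377), as did NDC80. SPC24 was at 15.9 FPKM in siE2F1, against 19.3 and 18.1 FPKM in control 0 and control 1, and SPC25 at 19.4 FPKM in siE2F1, against 22.0 and 20.98 FPKM. Neither passed (log2 fold change -0.22 ± 0.082, adjusted p = 0.151, and -0.14 ± 0.078, adjusted p = 0.277). In the controls the 4 genes had like levels per length, between 18.1 and 23.3 FPKM. The sum of NDC80 and NUF2 over that of SPC24 and SPC25 was 0.6 in siE2F1, against 0.98 and 1.12 in control 0 and control 1. Between the partners of a dimer, the ratio of SPC25 to SPC24 was 1.22 in siE2F1, against 1.14 and 1.16, while that of NDC80 to NUF2 was 0.568, against 0.92 and 0.875. With 1 siE2F1 library the difference between subunits was not tested.

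The SKA complex, a trimer that follows microtubule ends, was similarly uneven. SKA3 was at 4.34 FPKM in siE2F1, against 9.22 and 9.40 FPKM in control 0 and control 1, and fell (-0.95 ± 0.077, adjusted p = 0.0272), as SKA2 did. SKA1 was at 4.42 FPKM in siE2F1, against 5.005 and 5.16 FPKM in control 0 and control 1, and did not pass (-0.17 ± 0.081, adjusted p = 0.234). The siE2F1 library held 1.52 times as much SKA2 as SKA1 RNA per length, against 3.97 and 4.1 times in control 0 and control 1. For SKA3 over SKA1 the ratio was 0.983 in siE2F1, against 1.84 and 1.82 in control 0 and control 1. The median of the complex was -0.95, which rests on which of 3 genes is in the middle. Whether these ratios of RNA carry over to protein was not measured.

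**Figure D4:**
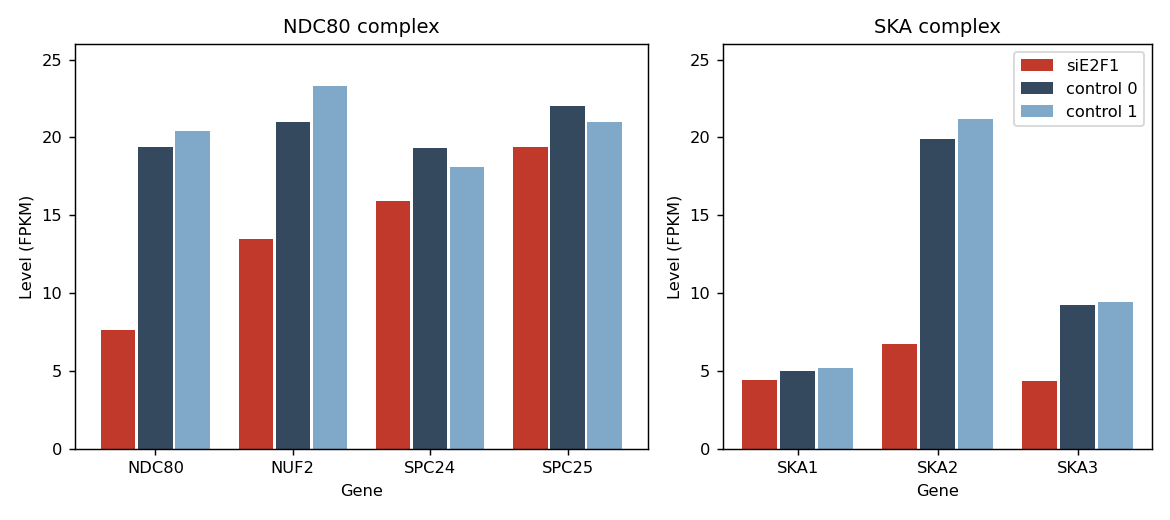
Level (FPKM) of the NDC80 complex genes (left) and SKA complex genes (right) in siE2F1, control 0 and control 1; each bar is 1 library. Bars of siE2F1 are far below both controls for NDC80 (7.65 FPKM), NUF2 (13.5 FPKM), SKA2 (6.70 FPKM) and SKA3 (4.34 FPKM), and close under them for SPC24, SPC25 and SKA1.

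Genes of the MIS12 and KNL1 complexes, the platform that joins the inner kinetochore to NDC80, were each below both controls, with median log2 fold changes of -0.22 for MIS12 and -0.45 for KNL1. DSN1, the subunit through which Aurora B kinase tunes assembly, was the only one of 4 MIS12 complex genes that fell (8.91 FPKM in siE2F1, 13.1 and 13.5 FPKM in control 0 and control 1, -0.53 ± 0.076, adjusted p = 0.0392). MIS12 was at 15.4 FPKM in siE2F1, against 18.0 and 18.3 FPKM, PMF1 at 36.9 FPKM, against 43.2 and 43.4 FPKM, and NSL1 at 3.34 FPKM, against 3.79 and 4.15 FPKM in control 0 and control 1. These 3 genes were each below both controls, at log2 fold changes of -0.23, -0.22 and -0.20, and did not pass. ZWINT, which ties KNL1 to the RZZ complex and was the highest in level of the 40 genes in the controls, fell to 38.2 FPKM in siE2F1, against 59.5 and 56.6 FPKM in control 0 and control 1 (-0.59 ± 0.078, adjusted p = 0.0366). Its partner CASC5, the gene of the KNL1 scaffold that recruits BUB proteins, was at 5.49 FPKM in siE2F1, against 6.97 and 7.20 FPKM, and did not pass (-0.32, adjusted p = 0.0771).

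In the RZZ complex, which brings dynein and the MAD proteins to unattached kinetochores, ZWILCH and KNTC1 fell and ZW10 did not pass. ZWILCH was at 14.4 FPKM in siE2F1, against 19.2 and 19.97 FPKM in control 0 and control 1 (-0.42 ± 0.076, adjusted p = 0.0483). KNTC1, the ROD subunit, was at 6.22 FPKM in siE2F1, against 8.74 and 8.502 FPKM in control 0 and control 1 (-0.41 ± 0.077, adjusted p = 0.0498). Both passed only narrowly. SPDL1 (Spindly), the dynein adaptor that RZZ recruits, was outside the 40 and fell to 12.4 FPKM in siE2F1, against 18.3 and 18.6 FPKM in the controls (adjusted p = 0.0374).

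Among the checkpoint genes, 3 of 6 fell, where 6.36% of genes in the second fit were called lower, and the median was -0.41. BUB1B (BUBR1), a part of the mitotic checkpoint complex that inhibits the APC/C, was at 13.9 FPKM in siE2F1, against 24.0 and 24.1 FPKM in control 0 and control 1 (-0.75 ± 0.073, adjusted p = 0.0303). TTK, the MPS1 kinase that starts checkpoint signalling, was at 7.61 FPKM in siE2F1, against 12.0 and 12.3 FPKM in control 0 and control 1 (-0.61 ± 0.076, adjusted p = 0.0364). BUB1, the kinase that marks centromeric chromatin, was at 17.5 FPKM in siE2F1, against 24.1 and 23.4 FPKM in control 0 and control 1 (-0.42 ± 0.075, adjusted p = 0.0463). In these 3 genes the controls lay close together and siE2F1 below. The adaptor BUB3 was at 43.3 FPKM in siE2F1, against 53.8 and 55.9 FPKM in control 0 and control 1, and MAD2L1 (MAD2), which is turned into the APC/C inhibitor at kinetochores, at 33.2 FPKM, against 42.2 and 46.3 FPKM. Both were below the controls and missed the threshold (adjusted p = 0.0681 and 0.0685). MAD1L1 (MAD1), the receptor of MAD2, was at 6.48 FPKM in siE2F1, against 7.99 and 6.93 FPKM. For MAD1L1 the shift from the nearer control was smaller than the gap between the controls. The ratio of BUB1B to BUB3 was 0.32 in siE2F1, against 0.447 and 0.431 in control 0 and control 1.

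The size of the change had little relation to the level. Over the 40 genes Spearman's rho between control level and log2 fold change was -0.19, given as a description of genes that share libraries. The median log2 fold change was -0.46 for the 16 genes with a control mean of at least 20 FPKM, -0.47 for 12 genes from 10 to under 20 FPKM and -0.33 for 12 genes under 10 FPKM, where the scale understates changes.

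The 21 other kinetochore genes, a list that spans loading factors, dynein adaptors and general chromatin or microtubule proteins, gave a mixed picture. Of these, 12 were below both controls and 4 above (39.7% and 43.8% of all genes tested), 6 fell and 0 rose (6.36% and 4.17% of genes in the second fit), and the median log2 fold change was -0.10. Besides HJURP, MIS18A, MLF1IP and SPDL1, these 6 were TRIP13, the ATPase that dismantles the checkpoint complex (10.0 FPKM in siE2F1, 18.4 and 17.0 FPKM in the controls), and KNSTRN, a protein of kinetochores and spindle microtubules (14.6 FPKM in siE2F1, 22.7 and 22.7 FPKM in the controls). CENPC1 (CENPC), the backbone of the inner kinetochore, was above both controls at 6.62 FPKM in siE2F1, against 5.82 and 5.97 FPKM, and did not pass (adjusted p = 0.270). The histone-binding proteins RBBP4 and RBBP7 (0.04 and 0.09) and the microtubule-end protein CLASP1 (0.19) were the others above both.

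A list of 10 G2/M genes outside the 40 moved with the kinetochore genes. The list had a median log2 fold change of -0.59, against 0.01 over all genes tested. All 10 were below both controls (39.7% of all genes tested) and 9 fell (6.36% of genes in the second fit). They ranged from AURKA, a spindle pole kinase (16.2 FPKM in siE2F1, 22.7 and 23.1 FPKM in the controls, -0.48), to CDC20, the APC/C activator that the checkpoint restrains (30.5 FPKM in siE2F1, 59.4 and 56.8 FPKM in the controls, -0.91). MKI67 was at 5.98 FPKM in siE2F1, against 9.64 and 8.06 FPKM in controls that lay apart, and did not pass (adjusted p = 0.0786). Cell cycle phase was not measured, and its part in the levels of the kinetochore genes was not tested.

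Several of the 40 genes share a start region with a gene on the opposite strand. In GENCODE release 29 (GRCh38), used for names, strands and which genes start beside or overlap each other, 39 of the 40 were matched and 16 had such a neighbour with a start within 1000 bases. Of the 13 neighbours tested, 7 were below both controls and 5 above, where 39.7% and 43.8% of all genes tested were, and their median log2 fold change was -0.08. The median of the kinetochore genes of these pairs was -0.33. NUSAP1, a spindle protein that starts beside OIP5, fell to 32.9 FPKM in siE2F1, against 50.03 and 48.3 FPKM in the controls (-0.57, adjusted p = 0.0366). PRR11, beside SKA2, fell to 8.45 FPKM in siE2F1, against 11.4 and 11.5 FPKM (-0.40, adjusted p = 0.0498), a smaller shift than that of SKA2. METTL4, beside NDC80, was at 2.27 FPKM in siE2F1, against 2.56 and 2.85 FPKM (-0.18), and did not pass. Neighbours of CENPO, CENPK, ITGB3BP, CENPQ and MIS12 were above both controls.

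**Figure D5:**
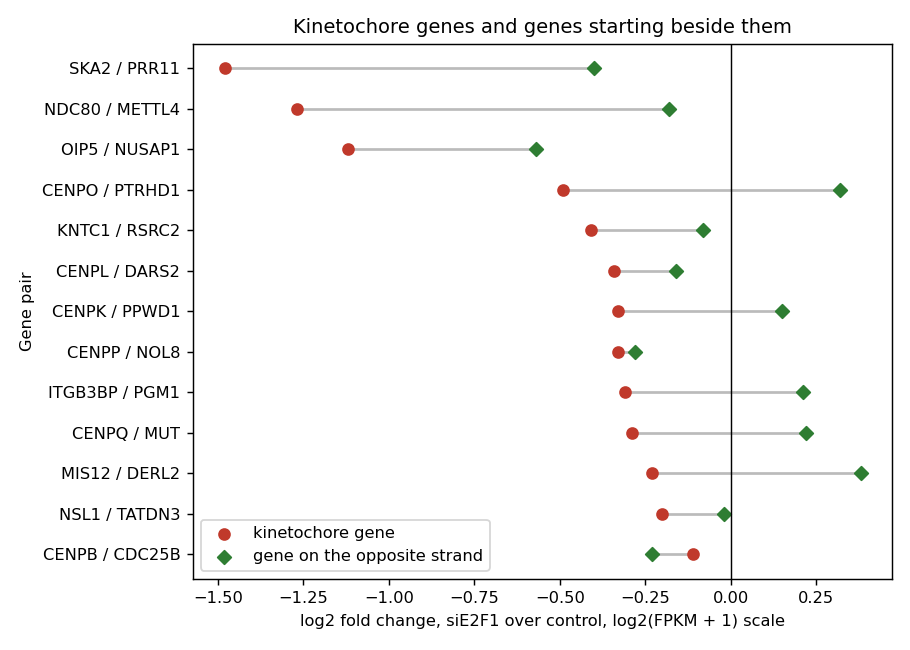
Log2 fold change, siE2F1 over control, of 13 kinetochore genes (circles) and of the gene that starts beside each on the opposite strand (diamonds); a line joins each pair. Kinetochore genes lie left of their neighbours in each pair except CENPB and CDC25B, and 5 neighbours lie above both controls.

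The library kit does not mark strand, and 16 of the 39 matched genes overlap another listed gene in that annotation, so some of their reads may belong to the partner; the partners with values here were named after their values were seen. PMF1 shares exons with the read-through gene PMF1-BGLAP, which was at 4.34 FPKM in siE2F1, against 4.20 and 4.49 FPKM in control 0 and control 1. OIP5 overlaps the noncoding OIP5-AS1, at 9.24 FPKM in siE2F1, against 8.64 and 11.5 FPKM in control 0 and control 1. MIR301A and MIR454, which lie within SKA2, were listed at 0 in each library. CENPT overlaps 3 other listed genes, NUTF2, THAP11 and TSNAXIP1. CENPO overlaps ADCY3, which fell to 5.19 FPKM in siE2F1, against 9.02 and 8.06 FPKM in control 0 and control 1 (-0.62, adjusted p = 0.0403). It also overlaps PTRHD1, which was above both controls at 50.3 FPKM in siE2F1, against 37.5 and 42.8 FPKM. Of the genes with large shifts, CENPA overlaps SLC35F6 and NUF2 overlaps RGS5. Whether reads of partners shaped the shifts of the kinetochore genes was not tested.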

How the data were processed

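RNA of 1 siE2F1 and 2 control libraries of LNCaP-abl cells was sequenced (TruSeq RNA kit, v2, as the labels' protocols state). Build hg19, Cufflinks 2.0.2 and TopHat2 2.0.4 are listed by the submitters' processing notes; for annotation, settings and scaling between libraries, nothing is given in the sources used here. The values deposited by the authors are log2 FPKM, 1 per gene and library. The lowest value in each library is log2 of 0.1, shared by 1615, 1791 and 1836 genes in siE2F1, control 0 and control 1, so FPKM was computed as 2 to the deposited value minus 0.1; if the authors had instead set a minimum, FPKM would be 0.1 too low. Sorted values of the libraries differ by at most 0.0653 on the log2 scale, a pattern that quantile normalization gives and that hides a change shared by most genes. Depth is unknown and no counting interval can be given.

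Groups came from the sample titles. Genes averaging 1 FPKM or more were tested on log2(FPKM + 1) in R 4.3.3 with limma 3.58.1 (moderated, with a mean-variance trend, two-sided, Benjamini-Hochberg over all genes tested, threshold 0.05). The spread comes from the 2 controls, 1 residual degree of freedom, with prior degrees of freedom of 1.69, or 3.19 without small RNA genes (symbols that begin with RNU, SNOR, SCARNA or MIR, their host genes excepted). The limma step was tested on simulated data. The members, the gene lists, the motifs, the naming rule and the fit without small RNA genes were chosen with earlier results of these data known. Some members of the other lists are not reported here by name. All 40 genes are named; values in each library are given for those at least 1.5-fold beyond both controls, those of the small complexes and selected CENP genes. The settings varied were the pseudocount (0.1 FPKM), the filter (none or 5 FPKM), small RNA genes, a common median, quantile normalization, the trend and each control left out. Promoter sequences are from RefSeq (GRCh38.p14), matched by symbol; no coordinate was converted.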

Additional observations from a re-analysis of the deposited data

How the results depend on the processing

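Directions held under each setting run. Of the 40 genes, 39 were below both controls at every setting that kept all 40, and 35 of 36 with a mean of at least 5 FPKM; without either control 39 were below the other. The count at least 1.5-fold below both was 11, and from 10 to 12 over the settings. No gene but CENPT had a positive log2 fold change at any setting (0 values). Limma called 19 of the 40 lower without small RNA genes and 0 at each of the other settings, and 0 higher throughout; this fit has fewer genes and a higher prior degree of freedom, and the cause was not tested further. The median log2 fold change was -0.44 with a pseudocount of 0.1 FPKM and -0.42 to -0.37 without 1 control. Of 104 subcomplex medians, 11 moved by more than the spread between the controls, 0.27 at most, for the SKA complex without SKA1. E2F1 lost its call with a pseudocount of 0.1 FPKM (-2.59, adjusted p = 0.0601) and with no filter (-2.12, adjusted p = 0.159), and was at -2.12 to -2.11 without 1 control.

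With 1 siE2F1 library every value of that group is unreplicated, and values without 1 control have no test. No paired analysis was possible because the siE2F1 library has no replicate number in the labels (its number in the sample table only names it) and stands alone. Depth is unknown, so no limit for low genes can be given.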
